A study of Caenorhabditis elegans with 44 samples.

Results

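Rhythms of microRNA strands were compared between late larvae and adults of the nematode Caenorhabditis elegans. The late-larval window held the 13 hourly libraries of 23 to 35 h and the adult window the 13 hourly libraries of 36 to 48 h. All strands with a mean raw count of at least 10 over the 44 libraries of the time course were members, which took in 272 of the 437 strands in the table (62.2%). Just inside this limit were miR-8189-3p and miR-392-5p, each with a mean of 10.2 counts, and just outside were miR-4806-3p with 9.80 and miR-1819-3p with 8.70. Among the members were 102 guides, which were the more abundant strand of a hairpin, their 102 partners, called passengers, and 68 strands with no tested partner. Partners were matched by hairpin name.

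The animals were wild-type worms of strain N2 with no treatment, grown at 25 °C from larvae synchronised in the first stage and sampled once an hour from 5 h to 48 h of feeding. Each library came from a population of whole worms, so that a change in the RNA of a cell and a change in the number of such cells cannot be told apart. There was 1 library for each hour. The scatter of the hourly values around the fitted curves therefore stood in for a spread between replicates, and every p-value refers to this single culture. In the main fit each strand had 1 estimate of this spread, shared by both windows.

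MicroRNAs are short RNAs cut from a hairpin precursor. One strand, the guide, is usually kept by an Argonaute protein and directs the repression of messenger RNAs, while the passenger strand is usually short-lived, so its level stays closer to the current output of the gene. In C. elegans larvae many genes are transcribed once in each molting cycle, and lin-4 and let-7, the founding microRNAs of the heterochronic pathway, time the passage from one larval stage to the next. The last molt ends this series of cycles, and the comparison asked which microRNA rhythms were still measurable after it.

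No molt was scored in the files, and the border between 35 h and 36 h was set by hours alone. The guides of the miR-35 family, which are abundant in embryos, served as a check on age. Together they took between 0.140% and 0.565% of a library at 23 to 35 h, with the lowest value at 34 h. They took 0.490% at 36 h, 3.17% at 40 h and 13.2% at 48 h. Totals ran from 7446763 to 14672735 counts in the late-larval window. In the adult window the 38 h library was shallow, with 1669246 counts, and the other 12 held between 9490247 and 13917458.

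For each strand the model held, in each window, a level, a linear trend and a cosine and sine of a 7 h period. The amplitude is the height of the fitted peak above the trend in log2 units, given ± SE. A rhythm was called where edgeR's quasi-likelihood test of cosine and sine gave a Benjamini-Hochberg adjusted p under 0.05 and the amplitude was at least 0.5. The rhythm difference was the test that cosine and sine were equal in both windows, which responds to a change of amplitude or of phase. A rhythm was called lost where it was called in late larvae, passed the difference test, and had a lower amplitude and no call in adults. A window of 13 h is shorter than 2 cycles of 7 h. Levels are normalised counts, that is, counts scaled to the mean total of the 44 libraries.

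In late larvae a rhythm was called for 29 strands, which was 10.7% of those tested. They were 18 passengers, 7 guides and 4 strands of neither kind. The count of 29 fell to 17 with separate fits of each window and to 12 with autocorrelated residuals. In adults no rhythm was called, 0 of 272 strands (0%), with 7 strands at an unadjusted p under 0.05, the lowest of them 0.00779. DESeq2, limma, separate fits of each window and a fit with autocorrelated residuals also called 0 strands in adults at the 7 h period. With a quadratic trend at the same period 2 strands were called in adults, 1 of them as a gained rhythm. In the main fit the results were as follows. The difference test passed for 16 strands (5.88%), and in each of the 16 the adult amplitude was the lower one. Of these, 12 strands met the definition of a lost rhythm (4.41%), namely 8 passengers, 3 guides and 1 strand without a tested partner. No rhythm was gained. The count of 12 fell to 4 with separate fits or autocorrelated residuals. Of the 12, the strands still called with autocorrelated residuals were miR-39-5p, miR-44-5p and miR-784-3p. The count went to 7, 6 and 6 without the library of 39 h, 41 h or 44 h, and to 20 without that of 35 h.

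A lower fitted 7 h amplitude in adults was not limited to strands that passed the test. A measure with no period, described below, was lower in adults for 151 of the 272 strands (55.5%). Among the 223 strands with no rhythm called at 8 to 22 h it was lower for 106 (47.5%). The median amplitude over all 272 strands was 0.17 in late larvae and 0.10 in adults, and 192 strands (70.6%) had the lower amplitude in adults. Passengers went from a median of 0.27 to 0.13, and guides from 0.12 to 0.07. The 95% interval of the amplitude difference lay below 0 for 40 strands and above 0 for none. The scatter around the fitted curve was similar in both windows, with a median residual SD of 0.247 in late larvae and 0.226 in adults.

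The lack of a call in adults is bounded by the fit, in which both windows shared 1 estimate of the spread. For miR-235-3p the upper 95% limit of the adult amplitude was 0.68. The SD of its log2 levels around a straight line was 1.60 in late larvae and 0.09 in adults. With each window fitted separately in edgeR, the smallest adjusted p in adults was 0.174, against 0.998 in the main fit. The upper 95% limit of the adult amplitude lay below 0.5 for 199 of the 272 strands, with a median limit of 0.36. Among the 29 strands with a late-larval rhythm this limit lay below 0.5 for 16 strands. For the other strands an adult amplitude of 0.5 or more was not excluded. The highest limit was 1.28 among the 29 strands and 1.40 among all 272.

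**Figure D1:**
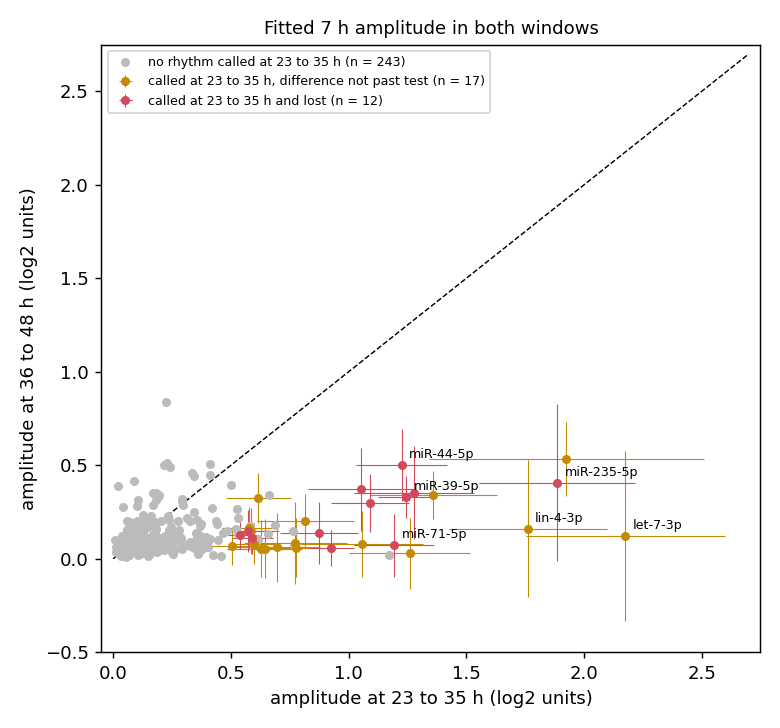
Fitted 7 h amplitude of 272 strands in late larvae (horizontal, log2 units) and adults (vertical, log2 units), with bars of 1 SE for the 29 strands called rhythmic at 23 to 35 h and the dashed line marking equal amplitudes. All 29 called strands lie below the line, with let-7-3p at 2.18 and 0.12 farthest to the right. The 29 were chosen by their late-larval rhythm, and of all 272 strands 192 had the lower amplitude in adults.

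The passengers of the heterochronic microRNAs swung widely, and let-7-3p had the largest fitted late-larval amplitude of the 272 strands. let-7-3p, the passenger of let-7, ranged from 229 to 12108 normalised counts in late larvae, with a median of 1363, and from 77.9 to 217 in adults, with a median of 138. It peaked at 29 h, fell to 229 at 35 h, and stood at 217 at 36 h, 1 period after the peak. No adult library reached the lowest late-larval value. The fitted amplitude was 2.18 ± 0.42 in late larvae (adjusted p = 0.00501, edgeR) and 0.12 ± 0.46 in adults, a difference of -2.06 with a 95% interval of -3.35 to -0.76.

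The joint difference test for let-7-3p missed the threshold (edgeR, adjusted p = 0.104), so it was not counted as lost. With a quadratic trend in place of the linear one the adjusted p was 0.00563, and with periods of 7.5 h and 6.5 h it was 0.00576 and 0.521. The call for this strand thus depended on the shape given to the curve, while its amplitude was lower in adults under each of these settings.

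lin-4-3p, the passenger of lin-4, showed the same course. It ranged from 89.0 to 2617 normalised counts in late larvae (median 364), with its peak also at 29 h, and from 57 to 110 in adults (median 96.1). The highest adult value was just above the lowest late-larval one. Its amplitude was 1.76 ± 0.34 in late larvae and 0.16 ± 0.37 in adults (edgeR, adjusted p for the difference = 0.0957, and 0.0122 with a quadratic trend). The lin-4 hairpin lies at chromosome II, 5902254 to 5902347 on the plus strand (WBcel235), in an intron of F59G1.4.

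The guides of the same hairpins moved far less. let-7-5p, which represses lin-41 to promote the larval-to-adult switch, ranged from 54015 to 121812 normalised counts in late larvae (median 87845) and from 57269 to 108695 in adults (median 70652), and the windows overlapped. Its amplitude was 0.33 ± 0.06 in late larvae, under the limit for a call, and 0.07 ± 0.06 in adults, and the difference passed the test (edgeR, adjusted p = 0.0448). lin-4-5p had amplitudes of 0.24 ± 0.05 and 0.06 ± 0.05 (adjusted p = 0.0565).

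miR-237 shares its seed with lin-4 and differed in both strands. miR-237-5p, the guide, ranged from 350711 to 686859 normalised counts in late larvae (median 467067) and from 244752 to 474765 in adults (median 380187), and its amplitude was 0.36 ± 0.07 and 0.11 ± 0.07 (edgeR, adjusted p for the difference = 0.0249). miR-237-3p, the passenger, ranged from 759 to 4681 in late larvae (median 1317) and from 481 to 1778 in adults (median 1138). Its rhythm was called lost, with amplitudes of 0.87 ± 0.16 and 0.14 ± 0.17 (edgeR, adjusted p = 0.0448). That call remained in 5 of the 26 fits that each left out 1 library, and not in the fit without the shallow one of 38 h. The hairpin lies at chromosome X, 8154084 to 8154182, plus strand.

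miR-235 is a member of the miR-92 family and is known for holding larvae of the first stage in arrest when food is absent. miR-235-5p, its passenger, ranged from 16.9 to 577 normalised counts in late larvae, with a median of 105, and from 8.82 to 44.8 in adults, with a median of 18.4. It was high at 23 h and 24 h and again from 31 h to 33 h, then fell from 196 at 34 h to 44.8 at 36 h and did not return. Its rhythm was called lost, with an amplitude of 1.89 ± 0.33 against 0.41 ± 0.42 (edgeR, adjusted p = 0.0448), and the call remained in 6 of 26 fits without 1 library and was not made without the 38 h library, with TMM or DESeq2 size factors, with separate fits, or with autocorrelated residuals.

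The guide miR-235-3p swung between 23549 and 622769 normalised counts in late larvae (median 314129), with a trough at 29 h and 30 h. In adults it declined from 441787 at 36 h to 224707 at 48 h, where the 13 values had a median of 325625. Its amplitudes were 1.17 ± 0.32 and 0.02 ± 0.32. Neither the late-larval rhythm (edgeR, adjusted p = 0.0814) nor the difference (adjusted p = 0.330) passed the test, although the interval of the amplitude difference ran from -2.09 to -0.22. With a quadratic trend the adjusted p of the difference was 6.83e-05. The hairpin lies at chromosome I, 6162291 to 6162387, minus strand.

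miR-71-5p, a guide known for its part in adult lifespan, was high in adults. It ranged from 16127 to 119804 normalised counts in late larvae (median 53915), with troughs at 23 h and 32 h and a peak at 27 h. From 32 h it climbed to 123513 at 36 h and stayed between that value and 251518 in adults (median 211582), so all 13 adult libraries were above all 13 late-larval ones. Its rhythm was called lost, with an amplitude of 1.20 ± 0.17 in late larvae and 0.07 ± 0.17 in adults (edgeR, adjusted p = 0.0207). The call was made in all 26 fits without 1 library, but not with separate fits of the windows, autocorrelated residuals, periods of 6 h and 6.5 h, or windows of 21 to 34 h and 35 to 48 h. The passenger miR-71-3p had amplitudes of 0.48 ± 0.12 and 0.15 ± 0.12 (adjusted p = 0.406). The hairpin lies at chromosome I, 9379927 to 9380020, minus strand, in an intron of ppfr-1.

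miR-45-5p, the passenger of miR-45, stayed in the middle of its larval range in adults. It ran from 616 to 3448 normalised counts in late larvae (median 1494), with its peak at 27 h and its trough at 31 h, and from 1489 to 2258 in adults (median 1795). Its amplitude was 0.93 ± 0.10 in late larvae and 0.06 ± 0.10 in adults, where the upper 95% limit was 0.26 (edgeR, adjusted p for the difference = 0.00171). The call was made in all 26 fits without 1 library, but not with autocorrelated residuals or periods of 6 h and 6.5 h. The hairpin lies at chromosome II, 11880944 to 11881039, minus strand.

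**Figure D2:**
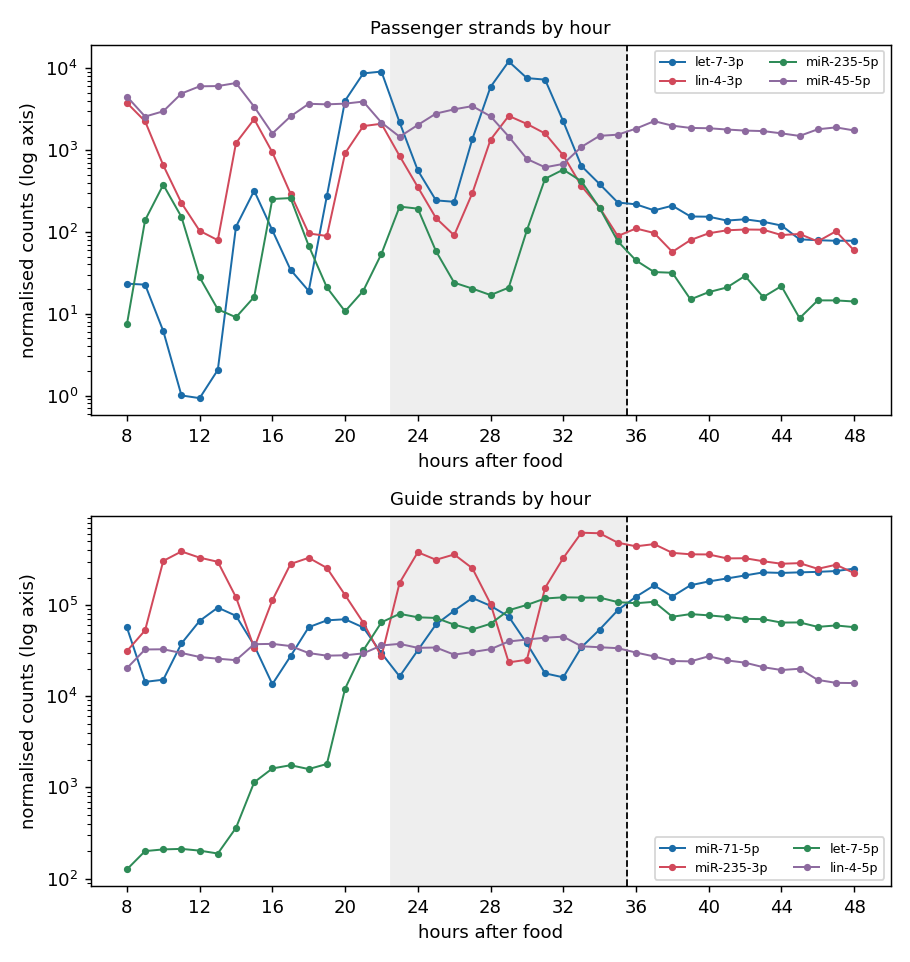
Normalised counts on a log axis against hours after food for 4 passengers (top) and 4 guides (bottom), 1 point per library, with 23 to 35 h shaded and a dashed line before 36 h. After the line let-7-3p stays between 77.9 and 217, miR-45-5p between 1489 and 2258, and miR-71-5p between 123513 and 251518.

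The miR-35 family, whose guides are needed in the embryo, held the largest group of late-larval rhythms. Of its 8 passengers, 7 were called in late larvae and 3 were lost, and the median amplitude was 1.07 in late larvae and 0.31 in adults. Of its 8 guides, 4 were called and 1 was lost, with medians of 0.65 and 0.13. Over all strands the medians were 0.17 and 0.10. All 16 strands had the lower amplitude in adults. The summed share of the 8 guides rose through the adult window, as given above. That share does not cover the passengers.

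miR-39-5p gave the clearest loss by adjusted p. It ranged from 76.2 to 534 normalised counts in late larvae (median 172), with a trough at 26 h, a peak of 440 at 29 h and a trough at 32 h. In adults it rose from 1013 at 36 h to 14675 at 48 h, with a highest value of 15495 and a median of 4292, and the windows did not overlap. Around these trends the amplitude was 1.25 ± 0.12 in late larvae and 0.33 ± 0.11 in adults (edgeR, adjusted p = 0.000753). The adult value had an unadjusted p under 0.05 but did not pass the adjustment. The call was also made with separate fits and with autocorrelated residuals, but not with periods of 8 h and 9 h.

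miR-37-5p ran from 53 to 539 normalised counts in late larvae (median 98.1) and from 890 to 6397 in adults (median 2001), again without overlap. Its rhythm was lost, with amplitudes of 1.09 ± 0.17 and 0.30 ± 0.15 (edgeR, adjusted p = 0.0167), but not with separate fits, autocorrelated residuals or periods of 7.5 h and longer. miR-36-3p, a guide named here after its values were seen, went from 1455 to 3930 in late larvae (median 2416) to 4421 to 125848 in adults (median 32574). Its rhythm was lost as well, with amplitudes of 0.54 ± 0.07 and 0.12 ± 0.07 (edgeR, adjusted p = 0.0253, called in 20 of 26 fits without 1 library). The hairpins of mir-35 to mir-41 lie together at chromosome II between 11537608 and 11538404 on the plus strand, in an intron of Y62F5A.9, which is on the other strand.

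The third lost passenger of the family, miR-42-5p, belongs to another cluster and is described with it. For the family members called in late larvae but not lost, the difference missed the threshold. miR-35-5p had amplitudes of 1.06 ± 0.26 and 0.08 ± 0.18 (edgeR, adjusted p = 0.138) and miR-40-5p of 1.36 ± 0.27 and 0.34 ± 0.13 (adjusted p = 0.0565). These passengers were scarce in late larvae, with at most 31.2 normalised counts for miR-35-5p and 14.0 for miR-40-5p. miR-38-5p, with at most 8.33 normalised counts in late larvae, had amplitudes of 1.93 ± 0.59 and 0.53 ± 0.20 (adjusted p = 0.334). Its guide miR-38-3p was the only strand of the 29 whose interval of the amplitude difference reached past 0, from -0.69 to 0.11.

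The cluster of mir-42, mir-43 and mir-44 lost the rhythm of all 3 passengers, while none of its 3 guides was called. The hairpins lie at chromosome II between 11889811 and 11890118 on the plus strand. miR-44-5p ranged from 93.7 to 2025 normalised counts in late larvae (median 566), with a peak at 28 h and a trough at 33 h, and from 186 at 36 h to 3272 in adults (median 552). It rose slowly to 328 at 40 h and to 2435 at 45 h, with no fall of the larval kind between. Its amplitude was 1.23 ± 0.19 in late larvae and 0.50 ± 0.19 in adults (edgeR, adjusted p = 0.00339). With a quadratic trend or a period of 8 h a rhythm was called for it in adults.

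miR-42-5p had amplitudes of 1.05 ± 0.22 and 0.37 ± 0.22, and miR-43-5p of 1.28 ± 0.26 and 0.35 ± 0.25, each with an adjusted p of 0.0448 in edgeR. miR-42-5p ranged from 42.1 to 657 normalised counts in late larvae (median 183) and from 76.0 to 592 in adults (median 117). miR-43-5p ranged from 20.0 to 332 in late larvae (median 82.3) and from 39.3 to 384 in adults (median 71.3). The windows overlapped for both strands. The calls for these passengers remained in 8 and 7 of the 26 fits without 1 library, and without the 38 h library neither was called.

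**Figure D3:**
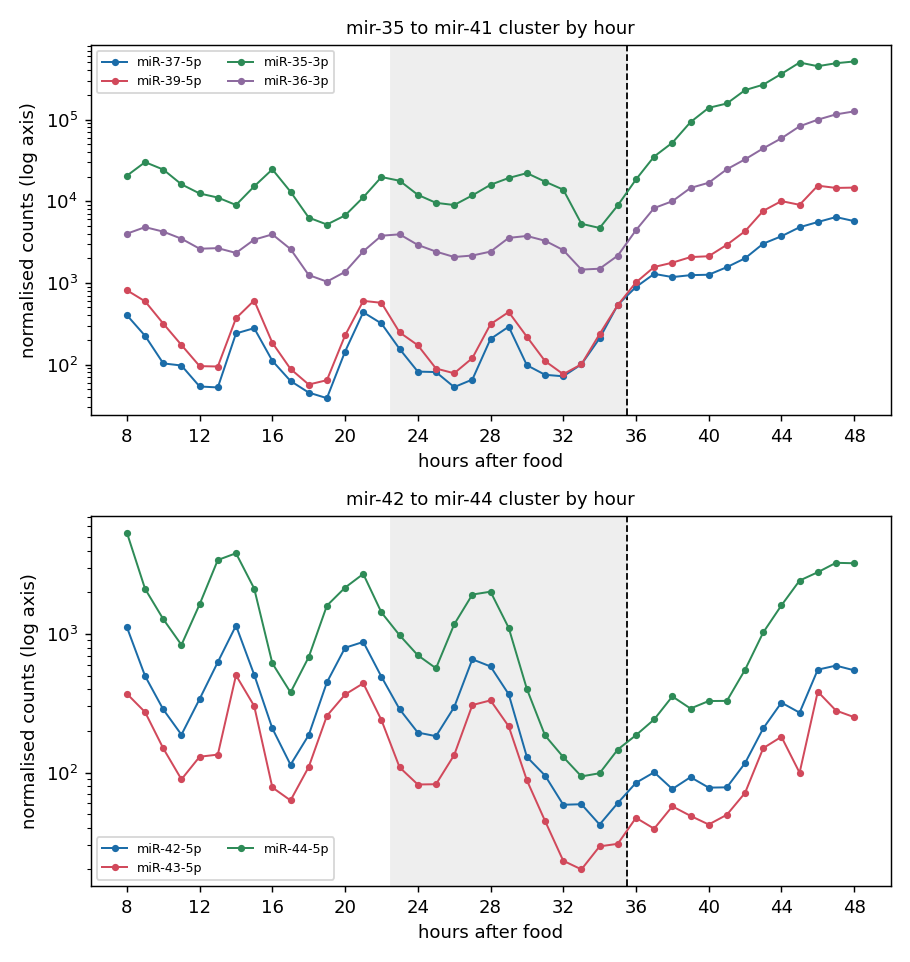
Normalised counts on a log axis against hours after food for strands of the mir-35 to mir-41 cluster (top) and of the mir-42 to mir-44 cluster (bottom), 1 point per library, with 23 to 35 h shaded and a dashed line before 36 h. The waves of the shaded hours give way to a rise, which takes miR-39-5p from 1013 at 36 h to 14675 at 48 h and miR-44-5p from 186 to 3248.

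The remaining lost rhythms, in strands named here after their values were seen, were smaller. miR-789-2-5p ranged from 578 to 3266 normalised counts in late larvae (median 1225) and from 529 to 1831 in adults (median 824), with amplitudes of 0.59 ± 0.09 and 0.11 ± 0.09 (edgeR, adjusted p = 0.00621). Its hairpin lies at chromosome IV, 17309307 to 17309403, minus strand. miR-784-3p, a guide, ranged from 22.7 to 194 in late larvae (median 92.7) and from 67.0 to 153 in adults (median 82.4), with amplitudes of 0.57 ± 0.11 and 0.15 ± 0.11 (adjusted p = 0.0249). Adult values of both strands overlapped their larval ranges.

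A pair of further strands passed the difference test with late-larval amplitudes under 0.5. The guide miR-244-5p had amplitudes of 0.40 ± 0.06 and 0.06 ± 0.06 (edgeR, adjusted p = 0.0163). The passenger miR-239a-3p had 0.44 ± 0.11 and 0.20 ± 0.11 (adjusted p = 0.0448), and its interval of the amplitude difference ran from -0.55 to 0.08. Both were named after their values were seen.

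In 17 of the 29 strands called in late larvae the loss was not called, with adjusted p for the difference from 0.0504 to 0.557. miR-4811-3p was near the threshold (edgeR, adjusted p = 0.0505), but its course was a switch rather than a wave. It stood at a median of 8.79 normalised counts in late larvae, reached 212 at 33 h and stayed between 110 and 253 in adults, and a single rise of this kind was fitted by a 7 h curve with an amplitude of 1.26 ± 0.26. miR-1817, also among the 17 and named after its values were seen, had a course of this kind. It went from 10.5 normalised counts at 24 h to 2040 at 33 h and stayed between 653 and 1587.5 in adults. Of the 29 strands, 8 had no called rhythm at 8 to 22 h. miR-788-3p had amplitudes of 0.60 ± 0.11 and 0.08 ± 0.11 (adjusted p = 0.0957). Its guide miR-788-5p fell from a median of 31928 to 926 normalised counts without overlap and had no called rhythm. miR-789-3p and miR-8191-5p kept a ratio between 1.22 and 2.22 over all 44 libraries. Whether these strands share reads was not tested.

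Adult levels lay in different places relative to the larval range. Of the 29 strands, 7 had every adult value above their late-larval range (24.1%, against 5.51% of all strands) and 2 had every adult value below it (6.90%, against 5.15%). The other 20 overlapped. let-7-3p was among those below, and miR-71-5p was among those above. The other 6 above belonged to the miR-35 family, whose guides together took a growing share of the counts through the adult window.

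A measure with no period gave the same direction. The SD of the 13 log2 levels (with 8 normalised counts added) around a straight line was taken in each window, a measure added after the data had been seen. For the 29 strands its median was 0.66 in late larvae and 0.29 in adults, and it was lower in adults for 28 of them. It was 2.17 and 0.14 for let-7-3p, 1.60 and 0.09 for miR-235-3p, and 1.06 and 0.15 for miR-71-5p. Over all 272 strands the medians were 0.27 and 0.23, and 151 strands (55.5%) were lower in adults. Because the 29 were chosen by their late-larval rhythm, their decline is a description.

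Strands were therefore also chosen by their curve at hours outside both windows. The spread behind this call came from 1 fit of 8 to 35 h, so the late-larval libraries had a part in the choice. At 8 to 22 h, in 15 libraries, 49 strands had a called rhythm (18.0%), of which 30 were passengers, 15 guides and 4 strands without a tested partner. Their median amplitude was 0.77 at 8 to 22 h, 0.51 at 23 to 35 h and 0.11 at 36 to 48 h. At least 0.5 was reached by 25 of them in late larvae and by 1 in adults. The amplitude was lower in adults than in late larvae for 46 of the 49 strands (93.9%), against 146 of the 223 other strands (65.5%). Of the 49 strands, 14 passed the difference test and 11 were lost. Of the 223 other strands, 2 passed it.

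The exceptions among the 49 were miR-5547-5p, miR-70-5p and miR-238-5p, named after their values were seen, with amplitudes higher in adults by 0.04, 0.06 and 0.07, and each interval of the difference held 0. The straight-line SD of the 49 strands had a median of 0.49 in late larvae and 0.25 in adults and was lower in adults for 45. Over the 223 other strands the medians were 0.24 and 0.22, and it was lower in adults for 106 (47.5%). Between 8 to 22 h and 23 to 35 h themselves, edgeR's difference test called 0 of 272 strands, with 40 at an unadjusted p under 0.05. DESeq2's size factors, TMM and limma gave 0 as well, while other periods and a quadratic trend gave from 4 to 51. Between late larvae and adults the main fit had 50 strands at an unadjusted p under 0.05, of which 16 passed the adjustment. The unadjusted counts of 40 and 50 were thus much closer than the counts of calls.

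**Figure D4:**
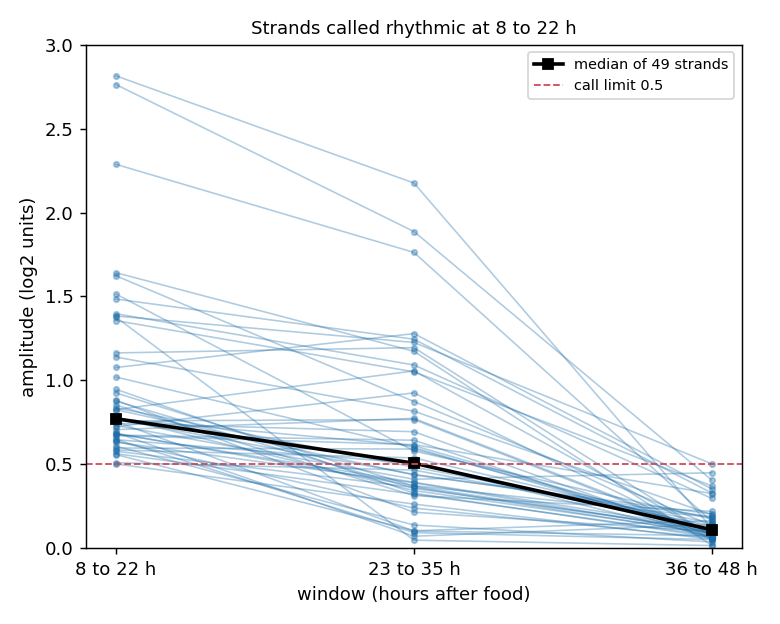
Fitted 7 h amplitude (log2 units) of the 49 strands called rhythmic at 8 to 22 h in 3 consecutive windows, 1 line per strand, with the median in black and the limit of 0.5 dashed. The median goes from 0.77 to 0.51 to 0.11, and 1 strand lies above the limit in adults.

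The ratio of passenger to guide removes what both strands of a hairpin share in a library, scaling included. In late larvae 14 of the 102 ratios were rhythmic, and in adults 0 were, with 3 at an unadjusted p under 0.05. limma also called none in adults. The difference passed for 7 ratios (6.86%), all lower in adults, and all 7 met the definition of a lost rhythm. Without the library of 32 h or 42 h the count was 3, and without that of 35 h it was 13. The median amplitude over the 102 hairpins was 0.27 in late larvae and 0.14 in adults, and 74 of them had the lower amplitude in adults. Because the 14 ratios were chosen by their late-larval rhythm, their decline is a description.

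miR-235 had the strongest ratio rhythm, at 2.49 ± 0.27 in late larvae and 0.40 ± 0.31 in adults, with an interval of the difference from -2.93 to -1.25. The amplitude of the miR-42 ratio was 1.17 ± 0.19 and 0.20 ± 0.19, that of miR-44 was 1.12 ± 0.18 and 0.43 ± 0.18, and that of miR-39 was 0.99 ± 0.15 and 0.21 ± 0.14. The others were miR-71, miR-45 and miR-237. miR-45-3p and miR-44-3p, the guides in these ratios, moved in step, each with amplitudes of 0.07 and 0.08, and whether their reads can be told apart was not tested. The let-7 ratio went from 1.95 ± 0.47 to 0.06 ± 0.49 and that of lin-4 from 1.51 ± 0.34 to 0.11 ± 0.36, with adjusted p for the difference of 0.233 and 0.181 in edgeR.

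**Figure D5:**
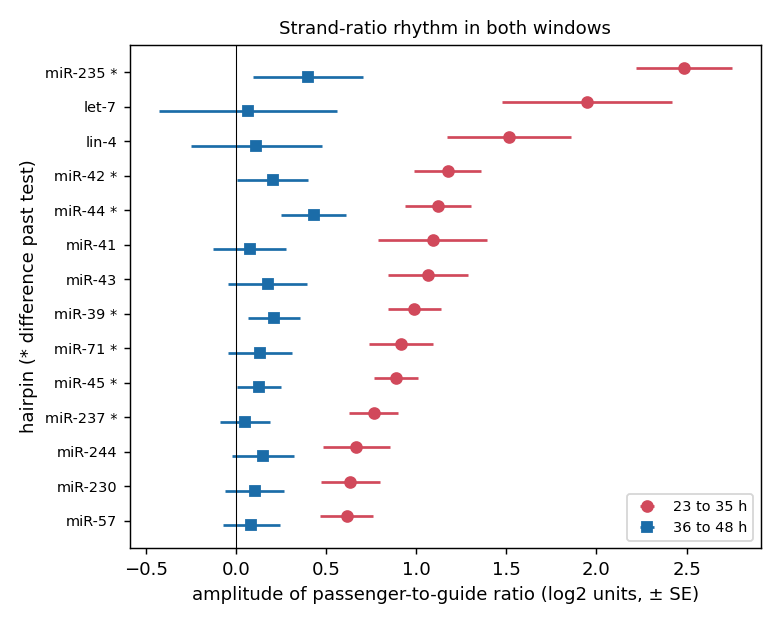
Amplitude of the passenger-to-guide ratio (log2 units, bars of 1 SE) for the 14 hairpins called rhythmic in late larvae, with red circles for 23 to 35 h, blue squares for 36 to 48 h and an asterisk where the difference passed the test. Each blue square lies to the left of its red circle, and miR-235 moves from 2.49 to 0.40. The 14 were chosen by their late-larval rhythm, and of all 102 ratios 74 were lower in adults.

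Other groups had no late-larval call. This held for the 5 let-7 family guides, both lin-4 family guides, 6 strands of the miR-51 family, 4 of the bantam-related miR-58 family, 4 of the miR-44 family, 4 of the mir-64 cluster and the 8 strands that switch on late. Median amplitudes in late larvae and adults were 0.10 and 0.04 for the let-7 family, 0.16 and 0.13 for miR-51, 0.06 and 0.06 for miR-58, and 0.30 and 0.06 for the late switch-on list. Strands known from certain tissues also had low amplitudes in both windows. miR-1-3p of muscle had 0.06 ± 0.04 and 0.02 ± 0.04, miR-124-3p of neurons 0.07 ± 0.10 and 0.09 ± 0.10, and miR-228-5p of glia and hypodermis 0.12 ± 0.12 and 0.17 ± 0.12. Of the other listed neuronal strands, miR-791-3p had 0.16 and 0.11, and lsy-6-3p had 0.08 and 0.06.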

How the data were processed

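Small RNA of whole N2 worms was sequenced by the authors with an Illumina TruSeq kit, 1 library per hour. The deposited raw counts per mature strand were made by the authors by alignment to ce10 with Bowtie and counting against miRBase. The deposited log2 table, scaled by the authors to the mean total with 8 added, matched the counts and was not tested. Coordinates are from WBcel235, and none were converted.

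Counts of 26 libraries were fitted in edgeR 4.0.16 (R 4.3.3) with 8 coefficients and total-count scaling (18 residual degrees of freedom). Amplitude SEs and intervals came from the delta method and cover scatter between hours. The strand ratio had the library as a factor. DESeq2 1.42.0, limma 3.58.1 and nlme 3.1.168 gave alternatives, pandas 2.3.3 and matplotlib 3.10.9 tables and plots. Scripts were tested on simulated data. The members and lists were chosen with earlier results of these data known. Named strands were the 12 largest late amplitudes, the 8 largest falls past the difference test, both strands of lin-4, let-7, miR-235, miR-71, miR-237, miR-788 and miR-247, the top 2 of each list, partners, and strands at the count limit. Ranks used strands with at least 100 normalised counts in either window.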

Additional observations from a re-analysis of the deposited data

Results flagged for a closer look

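The 16 strands whose rhythm differed between the windows by edgeR's difference test (adjusted p under 0.05) are given here by the change in amplitude, adult minus late larva, in log2 units. Among passengers it was -1.48 for miR-235-5p, -0.93 for miR-43-5p, -0.92 for miR-39-5p, -0.87 for miR-45-5p, -0.79 for miR-37-5p, -0.74 for miR-237-3p, -0.72 for miR-44-5p, -0.68 for miR-42-5p and -0.23 for miR-239a-3p. Among guides it was -1.12 for miR-71-5p, -0.43 for miR-784-3p, -0.41 for miR-36-3p, -0.34 for miR-244-5p, -0.26 for let-7-5p and -0.24 for miR-237-5p. For miR-789-2-5p, which had no tested partner under its hairpin name, it was -0.48.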

How the results depend on the processing

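No paired analysis was possible because there was 1 library per hour and no replicate number. In adults 0 strands were called in all 26 fits without 1 library and in 44 of 47 alternatives in all. The exceptions were 2 strands with a quadratic trend, 2 with a period of 8 h and 6 with a period of 9 h (periods of 6 h and 9 h were chosen after seeing the data). In those 3 settings 1 rhythm was gained each, and 1, 1 and 5 were called in both windows. At 8 h and with a quadratic trend the gained strand was miR-4813-5p, and miR-44-5p was called in both windows.

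The count of lost rhythms (12) and of rhythm differences (16) rose to 21 and 30 with DESeq2's likelihood ratio test, 29 and 59 with a quadratic trend, 23 and 38 with a 7.5 h period, 34 and 58 at 8 h, and 45 and 103 with a 9 h period. They fell to 5 and 5 at 6.5 h, 3 and 3 at 6 h, and 4 and 4 both with separate fits and with autocorrelated residuals (median autocorrelation 0.577). Lost rhythms were 7 with an amplitude limit of 1. Differences were 10 with a mean count limit of 1, 10 without the 38 h library, 25 for 21 to 34 h against 35 to 48 h, and 7 in a test of the amplitude alone. Late-larval rhythms (29) were 17 with separate fits, 12 with autocorrelated residuals, 13 with a limit of 1 and, by period, 18 (6.5 h), 49 (8 h), 3 (6 h) and 59 (9 h).

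Leaving out 1 library gave 25 to 34 late-larval rhythms, 7 to 27 differences (7 without 41 h, 27 without 35 h, and over 1.5 times away from 16 in 13 fits), and 6 to 20 lost rhythms (6 without 41 h or 44 h, 7 without 39 h, 20 without 35 h). Of the 12 lost rhythms, 6 were called in all 26 of these fits, namely miR-71-5p, miR-37-5p, miR-39-5p, miR-45-5p, miR-44-5p and miR-789-2-5p. With autocorrelated residuals miR-71-5p, miR-37-5p, miR-45-5p and miR-789-2-5p were not called, and with separate fits miR-71-5p and miR-37-5p were not. Strand-ratio differences (7) were 1 with a 6.5 h period, 11 with 7.5 h, 17 with 8 h, 22 with a quadratic trend and 12 for 21 to 34 h against 35 to 48 h, and 3 to 13 without 1 library (3 without 32 h or 42 h, 13 without 35 h). Differences between 8 to 22 h and 23 to 35 h (0) were 24 with a 6.5 h period, 4 with 7.5 h, 51 with 8 h and 15 with a quadratic trend. At 9 h the amplitude change of miR-65-5p (0.0248) and miR-791-3p (0.17) was upward and passed the difference test. The cause of these changes was not tested. With 13 hours per window, neither the period nor the shape of the wave is well fixed.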

Other observations

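Some strands had a large adult amplitude or a low unadjusted p in adults. miR-8211-3p, with 0.91 to 14.0 normalised counts in adults, had an adult amplitude of 0.84 ± 0.27 (edgeR, unadjusted p = 0.0161). miR-790-3p, between 199 and 386 normalised counts in adults, had the lowest unadjusted p there (0.00779), with an amplitude of 0.28 ± 0.08 against 0.10 in late larvae. miR-4813-5p rose from a median of 49 normalised counts in late larvae to as many as 405 in adults, with amplitudes of 0.41 ± 0.20 and 0.51 ± 0.20. None of these strands passed the adjustment over all 272, and each was named after its values were seen.

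miR-246-3p, a guide named after its values were seen, was called rhythmic at 8 to 22 h with an amplitude of 1.38. Its amplitudes were 0.05 ± 0.16 at 23 to 35 h and 0.02 ± 0.16 at 36 to 48 h, so the fitted value was already small before the adult window. Whether the curve at 8 to 22 h was a wave or a single rise was not tested. It climbed from 2081 to 235765 normalised counts within the late-larval window and stood between 181166 and 254881 in adults.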
